A study of Mus musculus with 9 samples.

Results

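MC3T3-E1 cells that received an organic phosphate were compared with cells that received an inorganic phosphate at the same dose and for the same time. The comparison used the 3 libraries with 4 mM BGP and the 3 libraries with 4 mM NaHPO4, 6 of the 9 RNA sequencing libraries of the series, and it covered the 13679 of 55416 listed genes that passed the filter on low counts. MC3T3-E1 is a wild-type pre-osteoblastic line grown from mouse calvaria. All groups had been differentiated with ascorbic acid, dexamethasone and BGP, so the Control and NaHPO4 cells had met BGP before the treatment. The paper's methods leave BGP out of the medium in the days before the treatment, whereas the labels do not give this step. According to the paper, the medium of every group also held sodium phosphate. At day 27 the cells were given BGP, NaHPO4 or no extra phosphate (Control) for 16 h, and RNA was taken at day 28. Nothing in the labels says that the 3 libraries of a group came from separately grown cultures, and the p-values measure the spread between these libraries, which may be technical.

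BGP (β-glycerophosphate) is a phosphate ester of glycerol, whereas NaHPO4 stands for a mixture of sodium phosphate salts. Alkaline phosphatase, an enzyme on the surface of osteoblasts, splits BGP into glycerol and free phosphate. Osteocytes and their precursors secrete FGF23, a hormone that makes the kidney excrete phosphate and lowers the production of active vitamin D. Phosphate entry through sodium-dependent carriers, the MAPK pathway and a set of matrix proteins that control mineral growth are known to act around this hormone in bone.

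The deposited values were read counts per gene, with totals of 22331071 to 23546609 in the BGP group and 25203779 to 28234404 in the NaHPO4 group, so the NaHPO4 libraries were all deeper. Levels are given as CPM, the count of a gene relative to the TMM-scaled total of its library, and are not divided by gene length. No library stood apart from its group. The cells carried the markers of the osteoblast lineage, as all 13 fixed osteoblast and osteocyte markers passed the filter. In the test, 7 of them, among them Fgf23 and Dmp1, were higher with BGP, against 3.33% of all tested genes. Runx2, Ibsp, Alpl, Phex, Mepe and Pdpn did not pass the test. Some markers of skeletal muscle (Myod1, Myog), blood cells (Tyrobp, Cd3e), endothelium (Kdr) and epithelium (Epcam) had 0 counts in every library. Other members of these lists were detected, as Cd14 (4.05 to 6.75 CPM), Vwf (1.97 to 2.46 CPM) and Csf1r (0.59 to 1.26 CPM) passed the filter. Of the adipocyte markers, Fabp4 passed the filter with 9.75 to 15.5 CPM. None of these detected genes differed between the phosphates in the test.

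In edgeR's quasi-likelihood test, 736 genes (5.38% of those tested) differed between the phosphates at a false discovery rate (FDR) below 0.05. Of these, 456 (3.33%) were higher and 280 (2.05%) were lower with BGP, although the latter number was 494 when libraries were scaled by total counts, and 158, 173 and 185 without BGP replicate 1, BGP replicate 2 and NaHPO4 replicate 3. Most differences were small, since 656 of the 736 genes had an absolute log2 fold change (log2FC, BGP over NaHPO4) under 0.5. The remaining 80 genes (0.585%) are called differentially expressed genes (DEGs): 52 (65%) were higher and 28 (35%) lower with BGP. When libraries were scaled by their total counts in place of TMM, 52.3% of 88 DEGs were higher with BGP. For 10469 genes the 95% interval of the log2FC lay within 0.5 of 0, so for these a larger difference between the phosphates was outside the interval.

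Only 16 DEGs differed by more than 2-fold, 8 in each direction. The BGP and NaHPO4 libraries did not overlap in 51 of the 52 higher and 26 of the 28 lower DEGs, against 21.2% of all tested genes. Since DEGs were selected on differences between these same libraries, this separation is no separate support for them. Many DEGs were expressed at low levels: 28 of the higher and 16 of the lower ones had a mean between 1 and 10 CPM. The untreated Control level lay between the levels of both phosphates for 32 of the higher and 20 of the lower DEGs. It lay below both for 16 and 6 DEGs, and above both for 4 and 2.

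**Figure D1:**
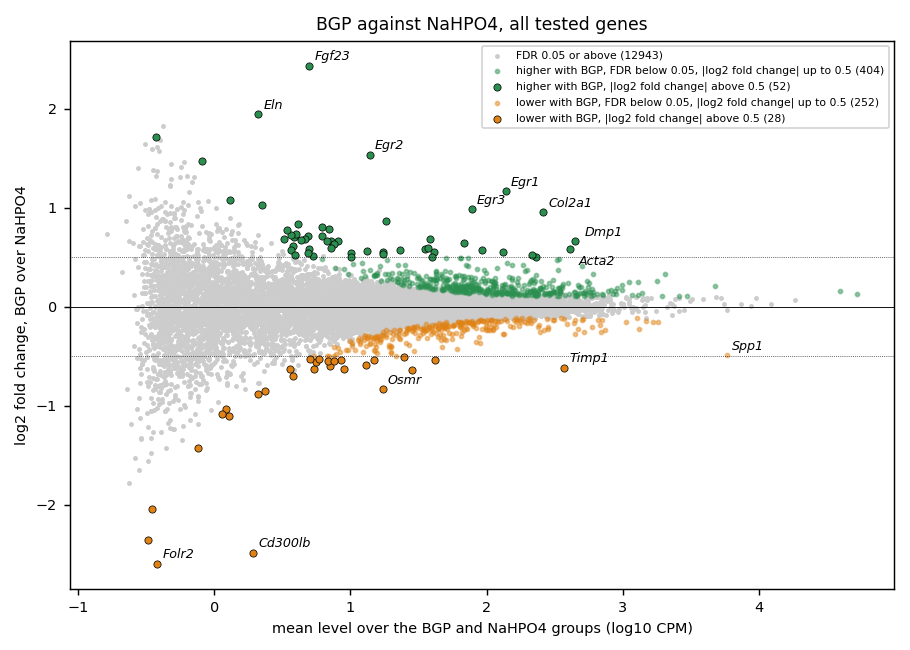
Log2 fold change of BGP over NaHPO4 (vertical axis) against the mean level over both groups in log10 CPM (horizontal axis) for each of the 13679 tested genes. Green and orange points passed the test as higher (456) or lower (280) with BGP, outlined points are the 80 DEGs beyond the dotted lines at 0.5, and most coloured points lie inside those lines.

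Of 23 tested genes of FGF23 production and phosphate handling, 11 were higher and 1 was lower with BGP (52.2%, against 5.38% of all). The median log2FC was 0.14 against -0.00185 over all tested genes. This list and the lists below were chosen with earlier results of these data known. A raised share in a list may therefore be partly built in and is no separate support. Both the hormone Fgf23 and Dmp1, a secreted phosphoprotein of osteocytes whose loss raises FGF23, were among the higher genes. Spp1, which encodes the mineralization inhibitor osteopontin, was the gene that was lower with BGP.

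Fgf23 (chr6:127049865-127059255, 3 exons) had 10.2, 7.41 and 7.52 CPM with BGP and 1.86, 1.37 and 1.41 CPM with NaHPO4. The lowest BGP library lay far above the highest NaHPO4 library, and the NaHPO4 libraries lay in the range of the Control libraries (0.914 to 1.61 CPM) or just over it. The difference was 5.41-fold (log2FC 2.44 ± 0.19, SE; FDR 1.14e-11). Against Control, the log2FC of Fgf23 was 2.78 for BGP (FDR 1.07e-12) and 0.35 for NaHPO4 (FDR 0.496).

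Dmp1 (chr5:104345340-104361974) reached 597, 542 and 515 CPM with BGP, compared to 369, 314 and 363 CPM with NaHPO4. Both groups lay above the Control libraries, which held 67.0 to 87.4 CPM, and the phosphates did not overlap. The log2FC was 0.66 (95% interval 0.55 to 0.77, FDR 6.44e-11). Enpp1 makes pyrophosphate outside the cell and Ank carries pyrophosphate precursors out of it, and pyrophosphate restrains mineral growth. Enpp1 was at 53.8, 45.7 and 42.0 CPM with BGP and at 31.2, 27.6 and 28.9 CPM with NaHPO4 (log2FC 0.69, FDR 3.36e-06), although with DESeq2 its FDR was 0.0981. Ank was at 259, 259 and 240 CPM with BGP and at 175, 159 and 195 CPM with NaHPO4 (log2FC 0.52, FDR 2.42e-09). Neither gene overlapped between the phosphates.

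Spp1 (chr5:104582165-104589235) showed the opposite order, with 4842, 5187 and 4489 CPM under BGP and 6689, 6264 and 7404 CPM under NaHPO4. Every BGP library lay below every NaHPO4 library, and both groups lay above Control (1646 to 1881 CPM). The log2FC was -0.49 (95% interval -0.58 to -0.39, FDR 2e-09), just short of the size taken for a DEG. The annotated gene Gm42793 shares exon sequence with Spp1 on the same strand and was higher with BGP (log2FC 0.66, FDR 0.00143), so reads of these genes may have been split between them.

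Of the phosphate carriers, Slc20a1 (PiT-1) was higher with BGP and Slc20a2 (PiT-2) was not. Slc20a1 had 82.2, 86.8 and 81.7 CPM with BGP and 65.4, 62.9 and 59.9 CPM with NaHPO4, both above every Control library. Its groups did not overlap (log2FC 0.41, FDR 3.57e-08). For Slc20a2 the libraries overlapped, and the 95% interval of the log2FC ran from -0.15 to 0.05 (FDR 0.693). The exporter Xpr1 had an interval from -0.10 to 0.08 (FDR 0.952).

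Fam20c, the kinase that phosphorylates FGF23 and matrix proteins such as DMP1, had 183, 180 and 164 CPM with BGP and 129, 121 and 145 CPM with NaHPO4. The groups were again apart (log2FC 0.42, FDR 9.3e-08). Galnt3, whose enzyme adds the sugar that protects FGF23 from cleavage, could not be told apart between the phosphates (log2FC 0.11, 95% interval -0.11 to 0.33, FDR 0.682). Phex, an endopeptidase that restrains FGF23, had a log2FC of 0.18 (95% interval 0.04 to 0.32, FDR 0.134), with overlapping libraries. Alpl, the alkaline phosphatase that cleaves BGP, had 76.1, 72.5 and 71.1 CPM with BGP and 64.8, 69.2 and 65.5 CPM with NaHPO4. Its groups did not overlap but the gene did not pass the test (log2FC 0.14, 95% interval 0.05 to 0.23, FDR 0.0601).

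Vdr, the vitamin D receptor, lay on opposite sides of the Control mean. It had 165, 164 and 144 CPM with BGP, 107, 108 and 108 CPM with NaHPO4, and 121 to 144 CPM in Control. The log2FC between the phosphates was 0.55 (FDR 2.24e-10). Against Control it was 0.26 for BGP (FDR 0.000585) and -0.29 for NaHPO4 (FDR 6.73e-05). Sost, the osteocyte gene for the Wnt antagonist sclerostin, was low, with 1.53, 1.57 and 0.516 CPM for BGP and 0.51, 0.421 and 0.351 CPM for NaHPO4. BGP replicate 3 almost touched the NaHPO4 libraries, while Control held 1.35 to 1.42 CPM. The log2FC of 1.48 passed the test (FDR 0.0155), but it did not without BGP replicate 1 or 2 (FDR 0.127 and 0.133) or without NaHPO4 replicate 2 or 3 (FDR 0.0617 and 0.0782).

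**Figure D2:**
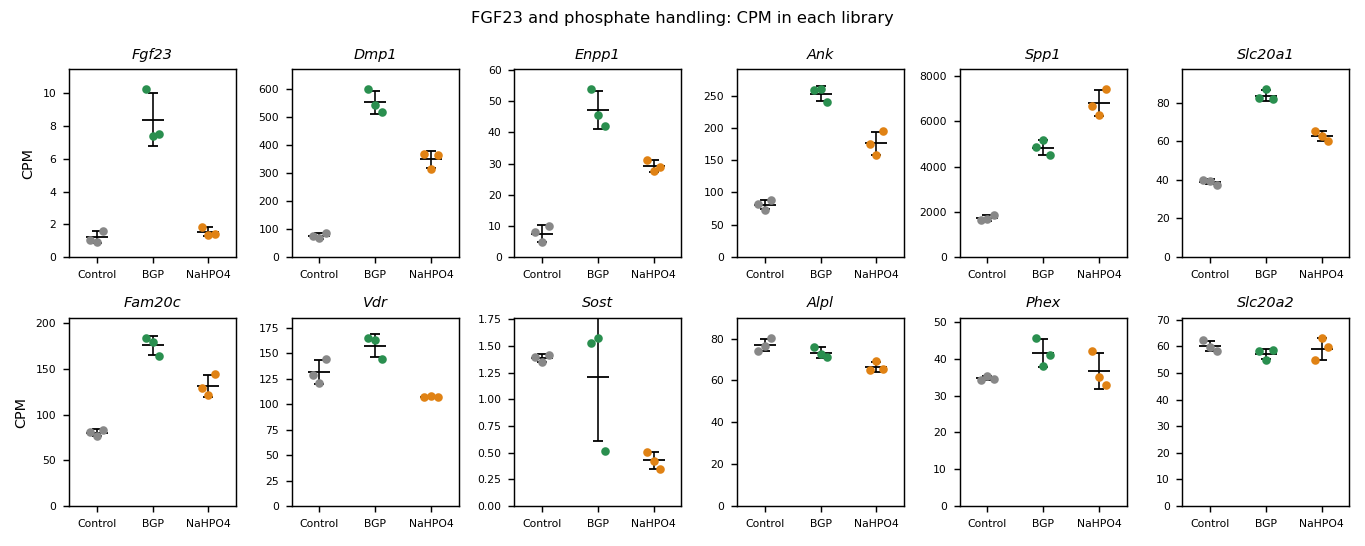
CPM (vertical axes, starting at 0) of 12 genes of FGF23 production and phosphate handling in each of the 3 libraries of Control (grey), BGP (green) and NaHPO4 (orange). The bars give the mean and SD over 3 libraries. Fgf23 stands high only in the BGP libraries, Spp1 is highest with NaHPO4, and Slc20a2 overlaps between the groups.

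Exact permutation tests of 3 libraries against 3 cannot give a two-sided p below 0.1. Fgf23, Dmp1, Enpp1, Ank, Spp1, Slc20a1, Fam20c, Vdr and Alpl all had this smallest p of 0.1, whereas Slc20a2 had an exact p of 0.5 and Galnt3 and Phex of 0.3.

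Immediate early genes code for transcription factors and regulators that cells switch on directly after a signal such as MAPK activity. Of 43 tested genes, 16 were higher and 1 (Cebpd) was lower with BGP at 16 h, 26 did not pass the test, and 9 of the higher genes were DEGs. The median log2FC of the list was 0.14. Among genes with at least 10 CPM in either group, 7.31% of all 9270 genes passed the test, compared to 14 of 31 genes (45.2%) of this list.

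The EGR family led the list. Egr1 had 205, 184 and 184 CPM with BGP and 88.0, 83.8 and 83.6 CPM with NaHPO4, while Control held 98.8 to 109 CPM. No NaHPO4 library reached Control, and every BGP library exceeded it (BGP over NaHPO4 log2FC 1.16 ± 0.04, FDR 5.68e-21). Egr2 had 22.6, 18.4 and 20.8 CPM with BGP and 7.64, 6.99 and 6.64 CPM with NaHPO4, a 2.9-fold difference (FDR 3.25e-13). Its NaHPO4 libraries were close to Control (6.83 to 8.98 CPM). Egr3 had 116, 101 and 92.6 CPM with BGP and 55.3, 47.5 and 53.8 CPM with NaHPO4, and here both phosphates lay above Control (25.9 to 30.7 CPM). The log2FC of Egr3 was 0.98 (FDR 7.09e-14).

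The nuclear receptor gene Nr4a1 had 27.3, 21.8 and 22.2 CPM with BGP and 13.1, 12.8 and 13.2 CPM with NaHPO4. These groups did not overlap either (log2FC 0.87, FDR 7.12e-09). Arc (log2FC 0.83, FDR 0.00118), Trib1 (0.81, FDR 0.000157), Fos (0.59, FDR 0.00764), Ier2 (0.58, FDR 1.98e-09) and Btg2 (0.55, FDR 4.01e-06) were the other DEGs of the list, with no overlap of libraries. Of these, Arc, Trib1, Ier2 and Btg2 were also higher with BGP than in Control at an FDR below 0.05. Against Control, the log2FC of Fos was 0.14 for BGP (FDR 0.732) and -0.45 for NaHPO4 (FDR 0.0485). Smaller differences between the phosphates that passed the test were found for Junb (0.42), Ccn1 (0.32), Zfp36 (0.31), Klf2 (0.27) and Srf (0.27).

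A list of genes that ERK signaling induces, most of them feedback inhibitors, had a median log2FC of 0.15. Of its 24 genes, 5 were higher with BGP (20.8%, against 3.33% of all) and 0 lower. Dusp5, a phosphatase that inactivates ERK in the nucleus, was the DEG among them, with 6.81, 6.02 and 5.29 CPM for BGP and 3.64, 4.18 and 3.16 CPM for NaHPO4. Its groups were apart (log2FC 0.72, FDR 0.00212). Against Control, Dusp5 had a log2FC of 0.39 for BGP (FDR 0.215) and -0.33 for NaHPO4 (FDR 0.234). Errfi1, an inhibitor of the EGF receptor, had 212, 221 and 205 CPM with BGP and 160, 159 and 158 CPM with NaHPO4 (log2FC 0.42, FDR 6.44e-11), with Control in between at 186 to 191 CPM. Dusp6, which acts on ERK in the cytoplasm, had 119, 108 and 97.3 CPM with BGP and 83.5, 77.5 and 89.3 CPM with NaHPO4. Its log2FC of 0.37 had an FDR of 0.000127, but of 0.0715 with DESeq2.

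Since many immediate early and cytoskeletal genes are textbook targets of serum response factor (SRF), which binds the CArG box, the 300 bases before the annotated transcript start were searched for this motif on both strands. The sequences were read from GRCm39 with GENCODE starts. They are shown for Egr2 and Dusp5 because the CArG box, in capitals, lies close to the start in each. Egr2 (chr10:67373392-67373691, plus strand) and Dusp5 (chr19:53517232-53517531, plus strand) read, from 5′ to 3′:
Egr2: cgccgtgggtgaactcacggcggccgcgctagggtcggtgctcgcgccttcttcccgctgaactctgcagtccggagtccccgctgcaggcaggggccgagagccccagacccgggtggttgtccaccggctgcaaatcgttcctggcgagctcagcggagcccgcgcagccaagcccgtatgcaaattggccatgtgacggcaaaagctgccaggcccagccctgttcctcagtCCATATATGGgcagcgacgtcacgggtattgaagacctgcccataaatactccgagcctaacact
Dusp5: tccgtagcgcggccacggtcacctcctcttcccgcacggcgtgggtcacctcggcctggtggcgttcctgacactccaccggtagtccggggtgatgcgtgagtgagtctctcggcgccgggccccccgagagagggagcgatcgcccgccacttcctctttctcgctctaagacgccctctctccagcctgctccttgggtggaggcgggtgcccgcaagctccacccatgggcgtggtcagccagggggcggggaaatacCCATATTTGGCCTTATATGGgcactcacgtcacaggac

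The box covered bases 65 to 56 before the start in Egr2, whereas Dusp5 held adjoining boxes at bases 38 to 29 and 28 to 19. In all, 5 of 43 immediate early genes (11.6%) and 6 of 38 contractile genes (15.8%) held a CArG box in this window, compared to 167 of 11850 protein-coding genes tested (1.41%). The contractile list was defined to include SRF targets, so its raised share was partly built in and is no result of the treatments. Of the 5 immediate early genes, 4 were higher with BGP, among them Egr2, Srf and Gadd45g, and Fosb did not pass the test. Of the 6 contractile genes, 5 were higher, among them Actg1, Tagln, Vcl and Cnn2, and Cald1 did not pass the test. The EGR site (GCGTGGGCG or GCGGGGGCG) was found for 7 immediate early genes (16.3%, against 4.43% of all) and 0 contractile genes. Of these 7, Klf2 and Srf were higher with BGP, and Fosb, Jund, Klf4, Maff and Mafk did not pass the test. The cyclic AMP response element TGACGTCA was found for 6 immediate early genes (14%, against 2.18%), of which Trib1, Ier2 and Btg2 were higher and Jund, Maff and Sik1 did not pass the test. The AP-1 site TGANTCA was found for 1 immediate early gene (2.33%) and 4 contractile genes (10.5%), against 5.65% of all. A match describes the sequence and does not show that a factor was bound.

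In this list of contractile genes and SRF targets, 20 of 38 were higher with BGP and 0 lower, with a median log2FC of 0.14. Of the 34 with at least 10 CPM in either group, 19 passed the test (55.9%, against 7.31% of all genes). Acta2, smooth muscle actin, had 477, 508 and 493 CPM with BGP, 303, 361 and 323 CPM with NaHPO4 and 415 to 455 CPM in Control. The log2FC between the phosphates was 0.58 (FDR 4.29e-12), and against Control it was 0.16 for BGP (FDR 0.0315) and -0.42 for NaHPO4 (FDR 5.7e-09). Myl9, a regulatory light chain of myosin, had 83.3, 84.2 and 82.7 CPM with BGP, 50.9, 58.7 and 50.8 CPM with NaHPO4 and 72.5 to 80.2 CPM in Control. No library overlapped between the phosphates (log2FC 0.64, FDR 1.14e-11). Against Control, the log2FC of Myl9 was 0.12 for BGP (FDR 0.267) and -0.52 for NaHPO4 (FDR 1e-09).

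The widely expressed actins were also higher with BGP than with NaHPO4. Actg1 had 387, 369 and 391 CPM with BGP, 268, 284 and 277 CPM with NaHPO4 and 362 to 377 CPM in Control (BGP over NaHPO4 log2FC 0.47, FDR 2.56e-12). Against Control, its log2FC was 0.05 for BGP (FDR 0.528) and -0.42 for NaHPO4 (FDR 2.53e-11). Actb, often used as a reference gene in qPCR, had 2308, 2177 and 2322 CPM with BGP and 1777, 1835 and 1801 CPM with NaHPO4. The groups were apart, and the log2FC was 0.33 (FDR 1.01e-09). The actin binding genes Tagln (0.36), Zyx (0.27), Flna (0.25) and Vcl (0.21) were also higher with BGP. Levels summed over 7 smooth muscle and myofibroblast markers were 697 to 718 CPM with BGP and 442 to 527 CPM with NaHPO4. Control held 595 to 651 CPM. Most of each sum was Acta2, so it largely repeats the result for that gene. Of the other markers, Cnn1 and Myh11 stayed near 0 in all libraries, and Des did not pass the test. In these bulk libraries, fewer cells of a type and less RNA per cell cannot be told apart.

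TGF-beta signaling acts through SMAD factors and induces its own inhibitors. Of 34 tested targets and regulators, 13 were higher and 0 lower with BGP, with a median log2FC of 0.11. Of the 31 with at least 10 CPM in either group, 12 passed the test (38.7%, against 7.31% of all genes). Skil, a repressor of SMAD activity, had 46.4, 46.7 and 41.1 CPM with BGP and 28.3, 30.4 and 30.3 CPM with NaHPO4. The NaHPO4 libraries lay in or just above the range of Control (26.0 to 29.6 CPM), well below BGP (log2FC 0.59, FDR 1.01e-08). Pmepa1, which also restrains SMAD signaling, had 45.6, 48.9 and 44.4 CPM with BGP and 31.6, 33.0 and 33.3 CPM with NaHPO4 (log2FC 0.51, FDR 5.19e-08). Ltbp2 (0.50, FDR 0.00522), Ccn2 (0.31, FDR 6.68e-05) and the ligand gene Tgfb3 (0.20) were higher as well.

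In the Notch pathway, 1 of 16 tested genes passed the test (6.25%, near the 5.38% of all genes), and 0 of the 11 with at least 10 CPM in either group. The called gene was Hes1, a transcriptional repressor, with 11.7, 9.25 and 8.98 CPM for BGP and 6.26, 6.78 and 5.86 CPM for NaHPO4. The NaHPO4 libraries coincided with Control (5.84 to 6.74 CPM) and the BGP libraries were all higher (log2FC 0.66, FDR 0.00031).

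Among matrix genes, Eln and Col2a1 were DEGs without overlap. Eln, elastin, had 5.05, 2.38 and 2.58 CPM with BGP and 0.546, 0.842 and 1.21 CPM with NaHPO4, while Control held 1.18 to 2.01 CPM. The difference was 3.85-fold (log2FC 1.95 ± 0.30, FDR 2.36e-05), and the first BGP library was the highest of all. In total 5 of 15 elastic fibre genes were higher, with a median log2FC of 0.14, and Fbln2 was lower (log2FC -0.14). The called genes made up 40% of the list, against 5.38% of all genes. The count of 5 became 3 with DESeq2, 2 without BGP replicate 1 and 3 without NaHPO4 replicate 3. For Fbn1, fibrillin, the libraries overlapped and the FDR of 0.00994 became 0.334 with DESeq2.

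Col2a1, the main collagen of cartilage, had 403, 325 and 299 CPM with BGP, 165, 142 and 225 CPM with NaHPO4 and 205 to 264 CPM in Control. The phosphates did not overlap (log2FC 0.95, FDR 4.96e-09). The other chondrocyte markers did not pass the test, Matn1 had 0 counts in all libraries and Acan was near 0. Among 37 collagens and collagen-processing genes, 9 were higher and 2 lower with BGP (29.7%, against 5.38% of all), and the median log2FC was 0.007. The count of 2 became 4 with total counts and 1 without BGP replicate 1. Besides Col2a1, the higher genes included Col15a1 (0.49) and, with a small difference, Col1a1 (0.16).

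Proteoglycan and sulfation genes were higher in 10 of 29 cases and lower in 1, the large proteoglycan gene Vcan (log2FC -0.29). The list median was 0.05, and 37.9% of the list passed the test, against 5.38% of all genes. Chst3 and Chst11 add sulfate to chondroitin. Chst3 had 45.8, 51.4 and 49.5 CPM with BGP and 33.3, 33.5 and 33.2 CPM with NaHPO4 (log2FC 0.55, FDR 2.33e-09). Chst11 had 83.5, 74.0 and 72.1 CPM with BGP and 55.7, 56.1 and 51.4 CPM with NaHPO4 (log2FC 0.49, FDR 1.29e-08). In both, the lowest BGP library lay well above the highest NaHPO4 library.

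**Figure D3:**
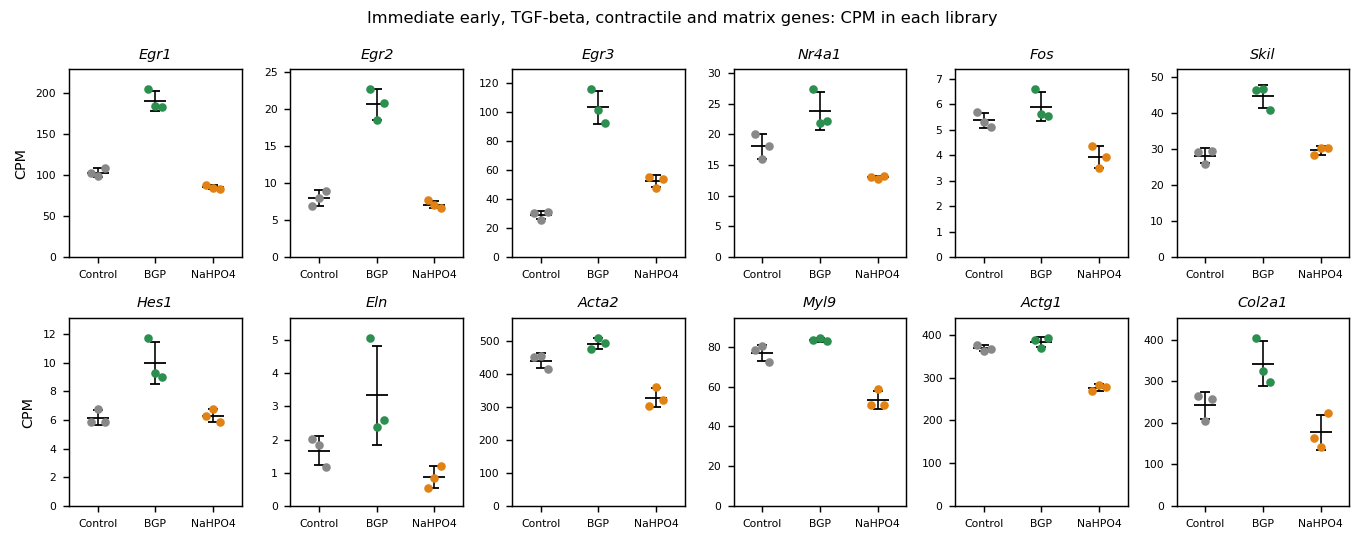
CPM (vertical axes, starting at 0) of 12 immediate early, TGF-beta, Notch, contractile and matrix genes in each library of Control (grey), BGP (green) and NaHPO4 (orange), with mean and SD over 3 libraries. Egr2, Skil and Hes1 stand high with BGP beside similar Control and NaHPO4 levels, whereas Acta2, Myl9 and Actg1 stand lowest with NaHPO4, and the BGP libraries of Acta2 lie above Control.

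Among 29 osteoblast and osteocyte genes outside phosphate handling, 5 were higher and 3 lower with BGP (27.6%, against 5.38% of all). The median log2FC was 0.02. Hivep3, a regulator of bone formation, was the DEG that was higher (13.2, 11.2 and 11.4 against 8.37, 7.65 and 8.63 CPM, log2FC 0.54, FDR 0.0016). Ptn, the growth factor pleiotrophin, was the one that was lower (33.4, 32.3 and 37.0 against 39.1, 52.2 and 58.5 CPM, log2FC -0.54, FDR 4.79e-05). Bglap2, an osteocalcin gene, and Smpd3 were higher by 0.24 on the log2 scale each. The intervals of 26 of the 29 genes lay within 0.5 of 0, and the count of 5 became 9 with no filter on low counts.

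Amino acid transporter genes were higher in 8 of 24 cases and lower in 0, with a median log2FC of 0.10. Of the 19 with at least 10 CPM in either group, 8 passed the test (42.1%, against 7.31% of all genes). The proton-coupled transporter gene Slc36a2 had 276, 266 and 276 CPM with BGP, 195, 193 and 189 CPM with NaHPO4 and 269 to 280 CPM in Control. Its BGP libraries thus matched Control and its NaHPO4 libraries were lower. The log2FC between the phosphates was 0.50 (FDR 3.79e-13), and against Control it was -0.0037 for BGP (FDR 0.975) and -0.51 for NaHPO4 (FDR 1.47e-13). Slc43a2, a carrier of branched-chain amino acids, had 117, 107 and 107 CPM with BGP, 75.8, 75.6 and 71.2 CPM with NaHPO4 and 100 to 113 CPM in Control (log2FC 0.57, FDR 1.59e-11). Slc6a6, the taurine transporter, was higher by 0.40 on the log2 scale (FDR 8.39e-07). The count of 8 became 5 with scaling by total counts and without BGP replicate 1 or 3 or NaHPO4 replicate 2 or 3.

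Of 59 tested genes of DNA replication, 29 were lower with BGP than with NaHPO4 (49.2%, against 2.05% of all). The cell cycle inhibitor gene Cdkn1a was the 1 higher gene (log2FC 0.11, FDR 0.0452), but it passed in only 8 of 18 alternatives. The median log2FC of the list was -0.22. None of these 29 differences reached 0.5 on the log2 scale. Mcm6, a subunit of the replicative helicase, had 73.6, 75.1 and 72.4 CPM with BGP, 93.8, 93.8 and 94.6 CPM with NaHPO4 and 73.2 to 75.0 CPM in Control. BGP and Control coincided, and all NaHPO4 libraries were higher (log2FC -0.35, FDR 6.34e-08). Against Control, the log2FC of Mcm6 was 0.35 for NaHPO4 (FDR 4.61e-08). Uhrf1, which keeps DNA methylation during replication, had 51.7, 50.8 and 52.5 CPM with BGP and 66.5, 74.7 and 67.6 CPM with NaHPO4. It showed no overlap (log2FC -0.43, FDR 4.87e-08). The histone chaperone gene Chaf1b (-0.46), Pole (-0.39) and Mcm3 (-0.34) were lower in the same way.

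E2F factors drive many replication genes, and their site (TTTCGCGC or TTTGGCGC, both strands) was found in the 300 bases before the start of 5 of 59 replication genes (8.47%), compared to 1.27% of all 11850. Of these genes, Mcm5 and Mcm6 were lower with BGP, while Pola1, E2f8 and Ccnd3 did not pass the test. The site was found for 0 of 40 DNA repair and checkpoint genes and 1 of 56 mitosis genes (1.79%). The stretch before the exons of Mcm6 (chr1:128287517-128287752, minus strand, 236 bases) is shown because matches on both strands overlap in it, in capitals:
Mcm6: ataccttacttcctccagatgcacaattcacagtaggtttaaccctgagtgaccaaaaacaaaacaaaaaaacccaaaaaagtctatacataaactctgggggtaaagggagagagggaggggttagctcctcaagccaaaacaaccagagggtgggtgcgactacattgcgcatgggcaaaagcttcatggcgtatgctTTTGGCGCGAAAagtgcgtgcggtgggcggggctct

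DNA repair and checkpoint genes were lower with BGP in 12 of 40 cases (30%, against 2.05% of all) and higher in 0. The median log2FC was -0.23. The helicase gene Brip1, a partner of BRCA1, had 6.95, 6.83 and 7.52 CPM with BGP and 11.1, 11.5 and 10.4 CPM with NaHPO4 (log2FC -0.63, FDR 9.64e-05). The exonuclease gene Exo1 had 5.68, 6.20 and 5.03 CPM with BGP and 9.03, 8.11 and 8.51 CPM with NaHPO4 (log2FC -0.60, FDR 0.00165). Chek1, the kinase that halts the cell cycle after replication stress, had 4.74, 4.13 and 4.68 CPM with BGP and 6.19, 7.20 and 6.56 CPM with NaHPO4 (log2FC -0.56, FDR 0.00732). In none of these 3 did the groups overlap. Recql4 (-0.53), Brca2 (-0.46) and Brca1 (-0.45) were lower as well. The count of 12 became 6 without BGP replicate 1 and 7 without BGP replicate 3.

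Mitosis genes were lower in 16 of 56 cases (28.6%, against 2.05% of all) and higher in 0, with a median log2FC of -0.17. Top2a, the topoisomerase that untangles chromosomes, had 119, 127 and 117 CPM with BGP and 151, 148 and 142 CPM with NaHPO4 (log2FC -0.28, FDR 1.39e-05). The groups did not overlap, and Control lay in between or beside BGP at 124 to 138 CPM. Cdk1 (-0.32, FDR 0.0007), Ncapg (-0.40, FDR 0.00201) and Mki67 (-0.23, FDR 0.000356) were lower too. Without BGP replicate 1, 7 mitosis genes were called lower, compared to 11 to 23 under the alternatives that kept all libraries at the same FDR.

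**Figure D4:**
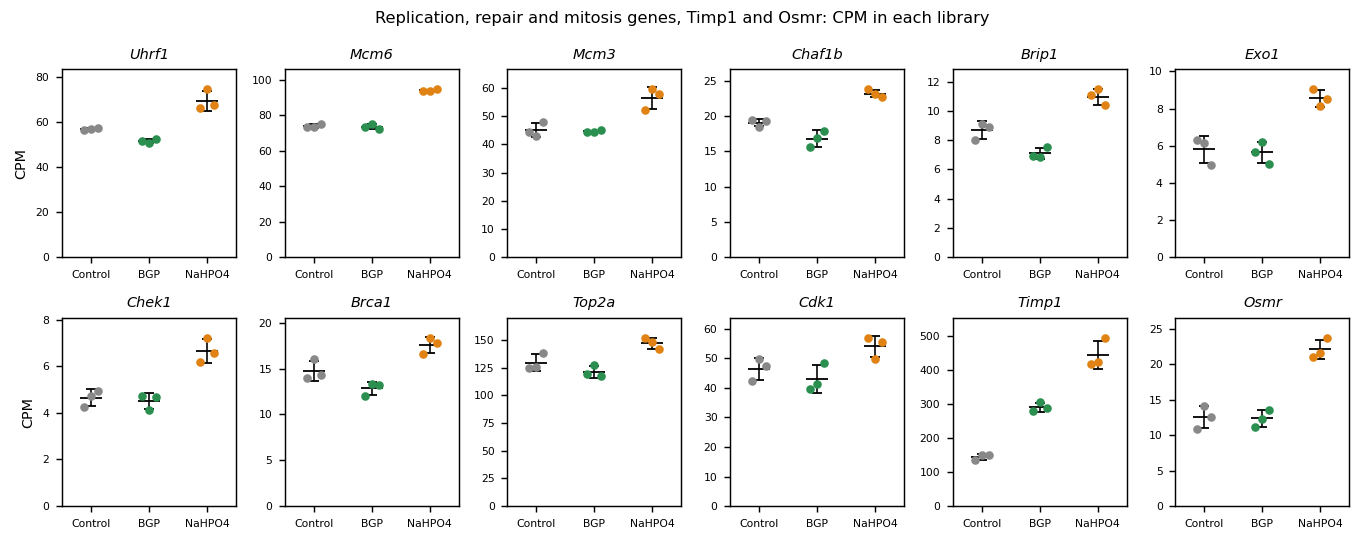
CPM (vertical axes, starting at 0) of 10 replication, repair and mitosis genes and of Timp1 and Osmr in each library of Control (grey), BGP (green) and NaHPO4 (orange), with mean and SD over 3 libraries. In every panel the NaHPO4 libraries lie above the BGP libraries, and for Mcm6, Exo1 and Osmr the Control libraries lie at the BGP level.

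Glycolysis and hypoxia genes were lower with BGP in 11 of 30 cases (36.7%, against 2.05% of all) and higher in 3. The median log2FC was -0.13. The lower genes included successive enzymes of glycolysis. Pgk1 had 40.3, 41.3 and 40.3 CPM with BGP, 51.5, 52.4 and 57.5 CPM with NaHPO4 and 37.4 to 42.9 CPM in Control (log2FC -0.40, FDR 2.42e-06). Eno1 (-0.28), Pkm (-0.26), Tpi1 (-0.24), Pgam1 (-0.23) and Gapdh (-0.22) had the same direction. The 3 higher genes were the growth factor genes Pgf (0.77, FDR 0.0152) and Vegfa (0.25) and the glucose carrier gene Slc2a1 (0.24). The count of 11 became 7 without BGP replicate 1, BGP replicate 2 or NaHPO4 replicate 3. Pgf did not pass without BGP replicate 1 (FDR 0.214) or NaHPO4 replicate 3 (FDR 0.112).

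Timp1, an inhibitor of matrix metalloproteinases, was the DEG with the highest level among those lower with BGP. It had 279, 305 and 288 CPM with BGP, 420, 424 and 494 CPM with NaHPO4 and 135 to 152 CPM in Control. Both phosphates lay above Control, and the NaHPO4 libraries were the highest (log2FC -0.62, FDR 4.84e-12). Osmr, the receptor for oncostatin M, had 11.2, 12.3 and 13.6 CPM with BGP and 21.1, 21.6 and 23.7 CPM with NaHPO4. BGP lay in the range of Control (10.9 to 14.1 CPM), and the log2FC was -0.84 (FDR 2.06e-08). Against Control, Osmr had a log2FC of -0.02 for BGP (FDR 0.949) and 0.81 for NaHPO4 (FDR 2e-08). In the list of 31 cytokine, receptor and complement genes, only Osmr was lower and 4 were higher (16.1% called, against 5.38% of all). The higher genes included Il12a (log2FC 0.71, FDR 0.00049), and their count became 2 without BGP replicate 3.

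Of 42 interferon response and antigen presentation genes, 3 were lower with BGP and 0 were higher. These were the guanylate-binding protein gene Gbp2 (log2FC -0.70), the proteasome subunit gene Psmb9 (-0.63) and Ifitm3 (-0.31). Gbp2 lost its call without BGP replicate 1 or 2 or NaHPO4 replicate 2 or 3, and Psmb9 without BGP replicate 2 (FDR 0.0508) or NaHPO4 replicate 3 (FDR 0.0789). The share of 3 in 42 (7.14%) was near the 5.38% of all genes. Caveola genes were lower in 2 of 8 cases (25%, against 2.05% of all), Cav2 (-0.54, FDR 5.21e-05) and Cavin3 (-0.20), or in 4 with total counts. IGF system genes were lower in 2 of 15 cases, Igfbp6 (-0.55) and Igfbp5 (-0.22). Only 1 of them was called when BGP replicate 1 or 2 or NaHPO4 replicate 2 or 3 was left out. At 10 CPM or more, 1 of 13 IGF system genes passed the test (7.69%), near the 7.31% of all genes.

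The DEGs with the largest fold differences in the direction of NaHPO4 were scarce transcripts. Cd300lb, a receptor gene known from myeloid cells, had 0.857, 0.449 and 0.43 CPM with BGP, 3.79, 2.14 and 3.87 CPM with NaHPO4 and 0.0787 to 0.187 CPM in Control. The phosphates were apart by 5.6-fold (log2FC -2.49, FDR 1.08e-06). The summed level of 7 blood cell markers was 5.48 to 7.87 CPM with BGP and 6.22 to 7.03 CPM with NaHPO4, most of it Cd14, and Ptprc and Tyrobp were at or near 0. Folr2, a folate receptor gene, had 1, 4 and 2 counts with BGP and 14, 17 and 22 counts with NaHPO4 (log2FC -2.60, FDR 0.00369). Insl3 (-2.04) shares exon sequence with Jak3 on the same strand, and Gm10080 (1.72) and Rbx1-ps (-1.42) are pseudogenes, so their counts are uncertain. All 3 lost their calls when some single libraries were left out.

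Of 79 cytosolic ribosomal protein genes, 4 (5.06%, near the 5.38% of all genes) were lower with BGP and 0 higher, the median log2FC was -0.02, and the intervals of 78 genes lay within 0.5 of 0. The count of 4 became 7 with scaling by total counts and 2 without BGP replicate 2. Stress response genes were called in both directions, 5 higher and 5 lower of 35 (28.6%, against 5.38% of all), with a median of 0.0036. Each count was lower, down to 2 and 3, when some libraries were left out. Of the lower ones, Calr (-0.25) and Hsp90b1 (-0.24) code for chaperones of the endoplasmic reticulum, and of the higher ones Mt1 (0.19) codes for a metallothionein. Cholesterol and fatty acid synthesis genes were lower in 6 of 30 cases (20%, against 2.05% of all), with log2FC values from -0.19 to -0.13. This count of 6 became 0 without BGP replicate 2, 2 without NaHPO4 replicate 2 and 3 without BGP replicate 3. Wnt pathway genes were higher in 3 and lower in 3 of 31 cases (19.4%, against 5.38% of all). Ccn5 (-0.50) and Rspo2 (-0.47) were among the lower ones. Without BGP replicate 1, 1 Wnt pathway gene was higher and 2 were lower. Mitochondrially encoded genes were higher in 2 of 10 cases (20%, against 3.33% of all), by 0.11 on the log2 scale each. Their number was 0 with total counts or without BGP replicate 2 or 3 or NaHPO4 replicate 2 or 3. Among matrix proteases and inhibitors, 2 genes were higher and 3 were lower of 19 (26.3%, against 5.38% of all). The count of 2 became 5 with no filter on low counts, and 1 with total counts or without BGP replicate 2 or 3 or NaHPO4 replicate 2 or 3.

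**Figure D5:**
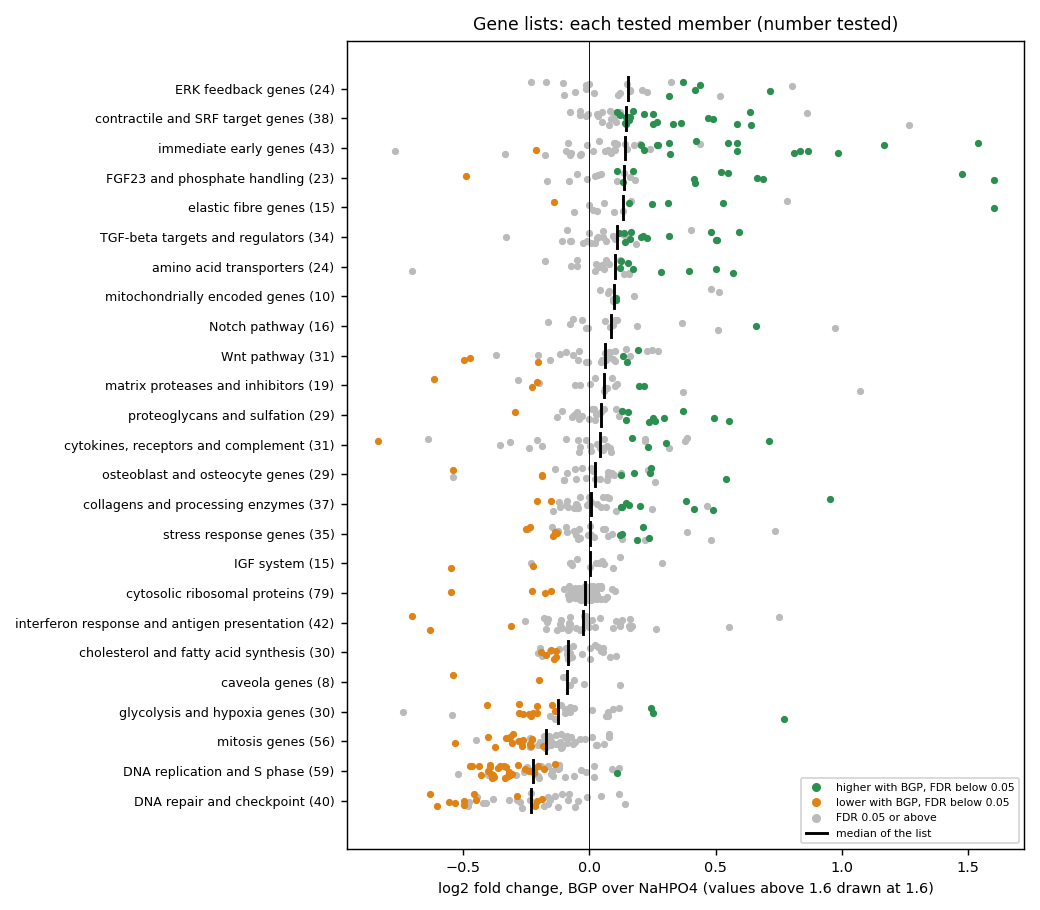
Log2 fold change of BGP over NaHPO4 (horizontal axis) for each tested member of 25 gene lists, ordered by the list median (black bars), with the number tested in brackets. Green and orange points passed the test as higher and lower with BGP. The medians of the repair, replication, mitosis and glycolysis lists lie left of 0, and those of the ERK feedback, contractile, immediate early and phosphate lists lie right of it.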

How the data were processed

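RNA sequencing counts of MC3T3-E1 cells (3 libraries each of Control, BGP and NaHPO4, assigned by the labels) were analysed. The authors deposited whole-number read counts per Ensembl gene, mapped to GRCm39 from stranded poly(A) libraries. Aligner, counting program and strand setting are not given in the sources used here. The authors also deposited a TMM-scaled signal table, used here only for its gene symbols.

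Counts were filtered with filterByExpr of edgeR 4.0.16 (count minimum 10), scaled by TMM and fitted with a coefficient per condition over all 9 libraries (glmQLFit, glmQLFTest). The Benjamini-Hochberg adjustment covered all 13679 tested genes, and a DEG was a gene with an FDR below 0.05 whose log2FC exceeded 0.5 in size. Standard errors came from the F statistic, and 95% intervals from the t distribution with the fit's degrees of freedom. The procedure was tested on simulated data with the same spread for all genes and changes planted only in well-counted genes. It recovered 185 of 200 planted changes with 1 false call. Scarce genes and differences in spread between genes were not covered by this simulation. Counting error is included in the fit, and the deeper NaHPO4 libraries were thinned in an alternative.

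Genes named were the 12 higher and 12 lower DEGs with the largest absolute log2FC and no overlap, up to 4 genes per direction with the smallest FDR in each list, and 19 fixed genes. Further members of the lists were picked with their values in view. The members and lists were chosen with earlier results of these data known. Alternatives were a fit of the BGP and NaHPO4 libraries alone, the likelihood ratio test, DESeq2 1.42.0, its size factors, total counts, other filters and thresholds, a replicate block and each library left out. Positions and sequences came from GENCODE M39 on GRCm39, which held 13631 of the tested IDs. Some items are not reported here. R 4.3.3, Python 3.11.15 and matplotlib 3.10.9 were used.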

Additional observations from a re-analysis of the deposited data

How the results depend on the processing

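Of the 130 genes named by the stated rules that passed the test, 82 passed under every alternative tried. No gene named by these rules changed sign. The further list members picked with their values in view were not followed through the alternatives gene by gene. Alpl passed with the likelihood ratio test and without NaHPO4 replicate 2, and Phex without NaHPO4 replicate 1. The likelihood ratio test gave 52 DEGs lower with BGP in place of 28. Scaling by total counts gave 494 genes lower at an FDR below 0.05 in place of 280. At an FDR below 0.01, 276 genes were higher, 132 were lower, and 16 DEGs were lower. With a minimum log2FC of 1, 8 DEGs were higher and 8 lower. When each library was left out in turn, the number of genes lower with BGP lay between 158 (without BGP replicate 1) and 291, and it was 173 without BGP replicate 2 and 185 without NaHPO4 replicate 3. The number of DEGs lay between 62 and 96 in these fits. With no filter, 101 genes were DEGs, and with all libraries thinned to the smallest total, an alternative chosen after seeing the data, 84 were, 71 of them shared.

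Pairing of the libraries by replicate number was not evident, as same-numbered BGP and NaHPO4 libraries had correlations of their deviations between 0.00562 and 0.0633. So few pairs cannot exclude a pairing. With the replicate block, 54 DEGs were higher and 33 lower. The counts of immediate early, contractile, TGF-beta, phosphate handling and replication genes stayed within 1.5 times of the values given, at an FDR below 0.05, in the direction in which most were called. Depth limits the scarce genes most, with Cd300lb, Folr2, Sost and Eln at few CPM in either group.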
